A study of Mus musculus with 27 samples.

Results

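The data described here concern 10 genes of matrix breakdown and its control in mouse liver: the matrix metalloproteinases Mmp2, Mmp8, Mmp9, Mmp12, Mmp13, Mmp14 and Mmp19, and the tissue inhibitors Timp1, Timp2 and Timp3. They are the rows of the count table whose Ensembl identifiers carry these symbols, 10 of 55414 genes. RNA-seq of whole liver was made from 27 female Balb/c mice, 8 weeks old, of which 14 received carbon tetrachloride (CCl4), a hepatotoxin that causes fibrosis, by intraperitoneal injection for 2 weeks and 13 received olive oil. Of the mice without CCl4, 4 were controls that also had PBS in the tail vein, 3 were gavaged with 4-methylumbelliferone (4MU), an inhibitor of hyaluronan synthesis, 3 were injected in the tail vein with lipid nanoparticles holding siRNA against hyaluronan synthase 2 (siHAS2-LNP), and 3 with nanoparticles holding siRNA against luciferase (siLuc-LNP), a target that mice lack. Of the CCl4 mice, 2 had CCl4 only, and 4 each had CCl4 + 4MU, CCl4 + siLuc-LNP or CCl4 + siHAS2-LNP. The 4MU arm therefore differed from the nanoparticle arms in route as well as in agent, and the CCl4 group rests on 2 mice. The comparisons asked what CCl4 did to each gene within each treatment, and how each treated CCl4 group differed from CCl4 alone and from the other treated groups.

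Matrix metalloproteinases are zinc proteases that cut the proteins of the extracellular matrix. Most are made as inactive precursors, are activated by other proteases such as plasmin, and are held in check by Timp proteins, which bind the active site. In the liver, macrophages and hepatic stellate cells make many of them. The balance of proteases and Timps is known to bear on whether scar collagen builds up or is removed, and Timp1 is a known product of activated stellate cells. Messenger RNA does not show how much active protease was present.

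The members fall into groups by role. The collagenases, which can cut fibrillar collagen, are Mmp8 (ENSMUSG00000005800, chr9:7558457-7568487, plus strand) and Mmp13 (ENSMUSG00000050578, chr9:7272514-7283331, plus strand). The gelatinases, which cut denatured collagen and basement membrane, are Mmp2 (ENSMUSG00000031740, chr8:93553902-93580049, plus strand) and Mmp9 (ENSMUSG00000017737, chr2:164780439-164797771, plus strand). Macrophage elastase is Mmp12 (ENSMUSG00000049723, chr9:7344381-7369499, plus strand). Mmp14 (ENSMUSG00000000957, chr14:54668878-54682821, plus strand) is a membrane-bound protease that also activates the precursor of Mmp2. Mmp19 (ENSMUSG00000025355, chr10:128626773-128636695, plus strand) is a secreted protease outside the classical subgroups. The inhibitors are Timp1 (ENSMUSG00000001131, chrX:20736316-20740976, plus strand), Timp2 (ENSMUSG00000017466, chr11:118191887-118246566, minus strand), which also takes part in the activation of Mmp2 by Mmp14, and Timp3 (ENSMUSG00000020044, chr10:86136236-86185371, plus strand), which stays bound to the matrix. All positions are on GRCm39 and span the whole gene, and the counts are summed over its exons. Several exons lie opposite exons of genes on the other strand: these took up 30.6% of the exon bases of Mmp19 (Tmem198b), 24.3% of Mmp2 (Gm45472), 21.3% of Timp3 (Syn3), 7.44% of Timp2 (Cep295nl) and 2.17% of Mmp12 (Mmp1b). The strand setting of the counting is not stated, so how reads from these stretches were assigned, or whether they were left out, is not known.

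The sequences just before the starts of 4 members are shown because Mmp12, Mmp13 and Timp1 had the largest differences with CCl4 and Mmp14 was among the most abundant members in every group. They come from RefSeq windows on GRCm38.p6, which held 7 of the 10 members (Mmp2, Mmp9 and Mmp19 had none). Each runs 5′ to 3′ on the plus strand, from 90 bases before the start to 9 bases after it. Capitals mark matches, on either strand, to TGACTCA (the AP-1 motif, TGAGTCA on the other strand), TATAAA (the TATA box) and GGGCGG (the GC box, CCGCCC on the other strand).
Mmp12, the second of its 2 starts, chr9:7347284-7347383: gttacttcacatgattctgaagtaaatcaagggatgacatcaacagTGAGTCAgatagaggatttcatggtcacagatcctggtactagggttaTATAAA
Mmp13, chr9:7272424-7272523: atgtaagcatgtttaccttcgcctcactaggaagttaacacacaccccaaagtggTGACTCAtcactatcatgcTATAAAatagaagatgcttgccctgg
Mmp14, chr14:54431508-54431607: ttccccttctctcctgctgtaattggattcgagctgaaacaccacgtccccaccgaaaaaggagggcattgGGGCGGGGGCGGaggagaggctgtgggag
Timp1, chrX:20870076-20870175: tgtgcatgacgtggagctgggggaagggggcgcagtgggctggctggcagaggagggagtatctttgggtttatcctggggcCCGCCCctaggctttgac
With the start base as position 0, the AP-1 letters began at -35 in Mmp13 and at -44, on the minus strand, at this start of Mmp12. Over the full window of 300 bases they were in 5.20% of all 32851 windows. None were found in the other Mmp12 window or in those of Mmp8, Mmp14, Timp1, Timp2 and Timp3. The GC box, which was in 35.7% of all windows, was found in Mmp14 at -19 and -13, in Timp1 at -8 and also in Timp2 and Timp3, but not in Mmp8, Mmp12 or Mmp13. A TATA box, in 13.6% of all windows, was in Mmp13 at -16, in this window of Mmp12 at 4 and in Mmp8 at -3. These matches describe the letters of the windows only.

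Libraries held 7044386 counts (CCl4 + siHAS2-LNP mouse 4) to 29425937 counts, so 3 counts, taken as the limit of detection, corresponded to 0.102 to 0.426 CPM (counts scaled to a library total of 1000000). Each library's median rank correlation with the others of its group was 0.959 to 0.990. The liver label held: the 5 hepatocyte markers summed to 162983 to 196840 CPM in control livers and 68771 to 121716 CPM in CCl4 livers. Of 4 pancreatic genes, Amy2a5 and Pnlip were at 0 in all groups, and Prss2 in all but control and CCl4 + siHAS2-LNP. The fourth, Cela1, was detected: where the other 3 were at 0, it stood at 5.23 to 29.9 CPM. Has2, the gene the siRNA targets, had 0 counts in 25 of 27 libraries, 2 in CCl4 mouse 2 and 1 in CCl4 + siLuc-LNP mouse 4, so its knockdown could not be checked in these data.

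Per kilobase of exon, which allows genes to be set side by side, Mmp19, Mmp14 and Timp2 led in that order in all 4 groups without CCl4. The lowest member on this scale was Mmp12, except in 4MU mice, where it was Mmp8. This order depends on the exon length, 7237 bases for Mmp12, 2426 for Mmp8 and 2673 for Mmp13. In CPM without that division, control livers had more Mmp14 (49.8) than Mmp19 (48.6). They also had more Mmp12 (0.254) than Timp1 (0.214), Mmp8 (0.173) or Mmp13 (0.170), all near the limit of detection. Per kb, Mmp19 was highest in control livers at 13.7 ± 3.55 CPM per kb (SD, n = 4), followed by Mmp14 at 8.07 ± 0.968 and Timp2 at 2.96 ± 0.571. Mmp12 stood last of the 10 at 0.0351 ± 0.0263 CPM per kb. The mice of Mmp19, Mmp14, Timp2 and Mmp2 did not overlap with those of the next gene in this order, while from Timp3 downward through Mmp9, Timp1, Mmp8, Mmp13 and Mmp12 each gene overlapped with the next. In the 2 CCl4 livers the first 3 places were the same, and Mmp12 stood in place 4 at 5.21 ± 0.402 CPM per kb (SD, n = 2), within the range of Timp2 at 6.03 ± 1.88. Timp1 rose from place 7 at 0.109 ± 0.0533 to place 5 at 2.52 ± 0.467 CPM per kb.

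**Figure D1:**
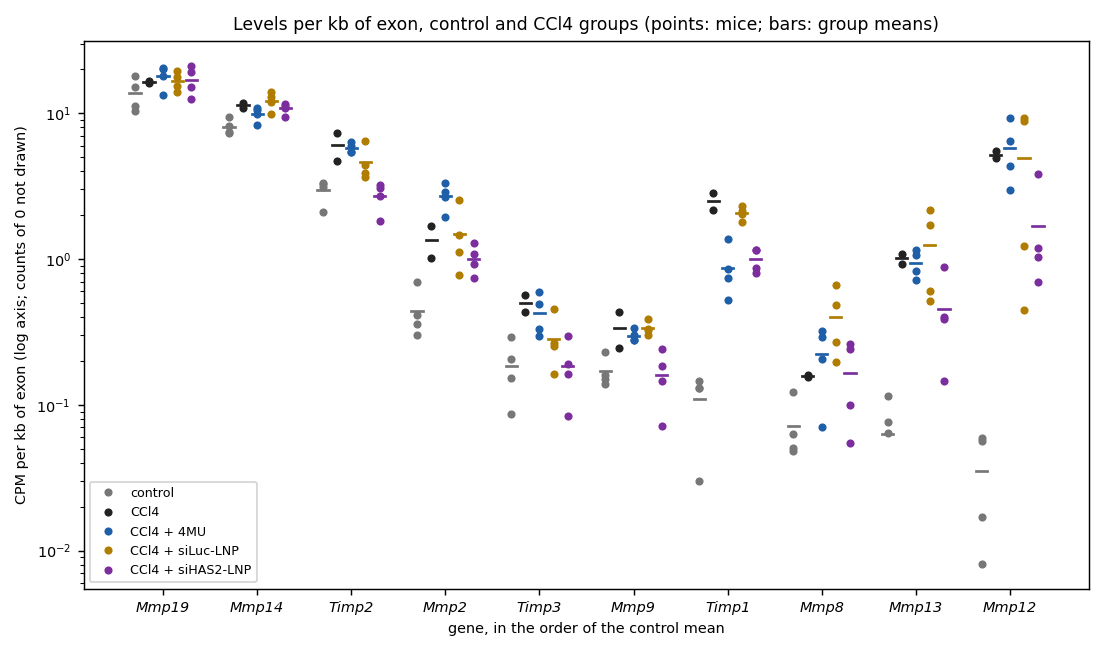
Level per kb of exon on a log axis for the 10 members in control livers and the CCl4 groups, with a point for each mouse and a bar for each group mean; a count of 0 is not drawn. Mmp19, Mmp14 and Timp2 lead in control livers, and Mmp12 moves from last place in control to place 4 in CCl4 livers.

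The make-up of the inhibitors changed with it. Timp2 made up 91.0% of the summed Timp level per kb in control livers and 66.7% in CCl4 livers, and Timp1 made up 3.36% and 27.8%. The 7 Mmp genes together stood at 5.45 to 9.12 times the 3 Timp genes per kb in control mice, at 3.38 to 4.80 times in the CCl4 mice and at 6.17 to 10.6 times in CCl4 + siHAS2-LNP mice. The control and CCl4 ranges of this ratio did not overlap, and neither did those of CCl4 and CCl4 + siHAS2-LNP mice. The groups with and without CCl4 did overlap with 4MU (4.07 to 6.21 and 5.04 to 13.7), with siLuc-LNP (4.61 to 6.51 and 5.27 to 7.39) and with siHAS2-LNP (7.93 to 9.79 without CCl4), and CCl4 + siHAS2-LNP overlapped with CCl4 + siLuc-LNP. It is a ratio of messenger RNA levels and says nothing of active enzyme.

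CCl4 raised most of the family. Mmp8 fell short of the minimum mean of 10 counts over all libraries and was not tested. Of the other 9 members 7 rose and none fell in CCl4 against control, where 18% of all 14114 tested genes rose (edgeR's quasi-likelihood test, adjusted p under 0.05). The same contrast called 6 members higher within 4MU against 13.2% of all genes, 5 within siLuc-LNP against 13% and 3 within siHAS2-LNP against 7.74%. No member fell in any of the 4 arms. The median log2 fold change of the 9 members was 1.43 in CCl4 against control, 1.57 in the 4MU arm, 0.61 in the siLuc-LNP arm and 0.51 in the siHAS2-LNP arm, while the median over all tested genes lay between -0.03 and 0.03. In whole liver, more RNA per cell and more cells of a type that expresses a gene cannot be told apart. The 4 contrasts share no mice. All CCl4 mice lay above all mice of the matching group without CCl4 in 8 of 9 members for CCl4 against control (25.7% of all tested genes), 7 in the 4MU arm (18.3%), 4 in the siLuc-LNP arm (13.7%) and 3 in the siHAS2-LNP arm (15.2%).

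**Figure D2:**
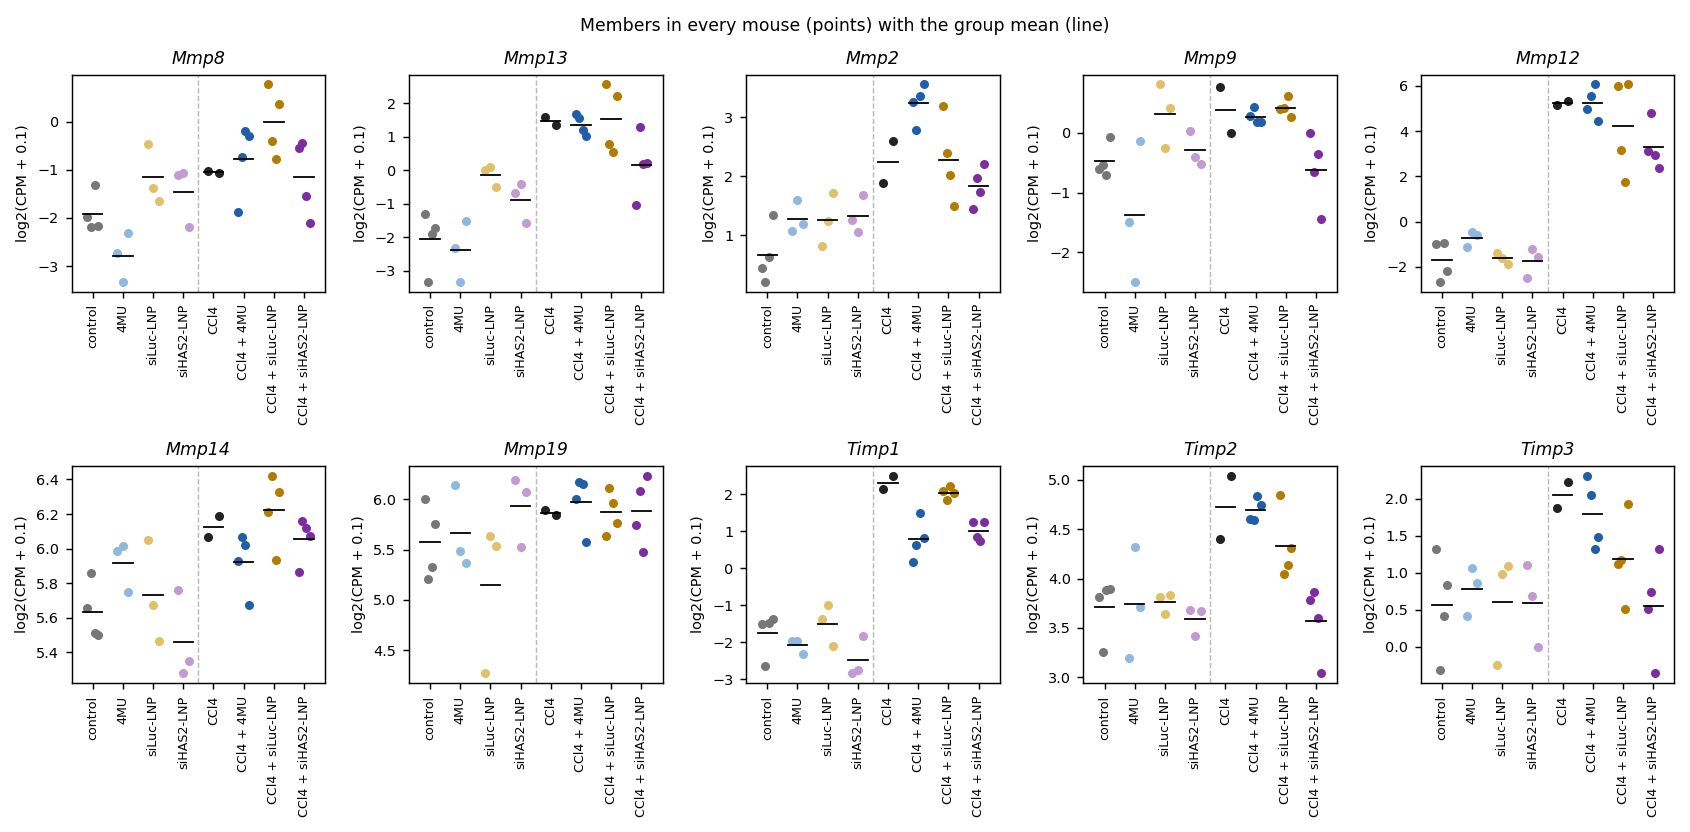
The 10 members in every mouse as log2(CPM + 0.1), with a point for each mouse, a line for the group mean of these values and a dashed line between the groups without and with CCl4. Mmp12 and Timp1 separate the 14 CCl4 mice from the 13 others, and Mmp19 overlaps between them.

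Mmp12, which cuts elastin and is made mainly by macrophages, had the largest difference. Its levels in control mice were 0.407, 0.0590, 0.427 and 0.123 CPM, from 1 to 10 counts a library, and 0.358 to 0.624, 0.176 to 0.286 and 0.0807 to 0.330 CPM in the 4MU, siLuc-LNP and siHAS2-LNP mice. It stood at 35.6 and 39.7 CPM with CCl4 alone, and the CCl4 + 4MU mice had 31.5, 46.6, 66.8 and 21.6 CPM. In CCl4 + siLuc-LNP mice the values were 64.0, 8.90, 3.24 and 66.7 CPM, and in CCl4 + siHAS2-LNP mice 8.64, 27.5, 7.50 and 5.07 CPM. Every CCl4 mouse was above every mouse without CCl4, also those with the lowest values, CCl4 + siLuc-LNP mouse 3 and CCl4 + siHAS2-LNP mouse 4. The log2 fold change was 7.15 ± 0.93 (SE) in CCl4 against control, with an edgeR adjusted p of 2.3e-06, 6.31 ± 0.92 in the 4MU arm, 7.28 ± 1.03 in the siLuc-LNP arm and 5.86 ± 1.03 in the siHAS2-LNP arm (adjusted p = 0.00041). Pooled over the mice of each group, the ratio of CCl4 to control was 146 (95% exact interval 96.0 to 233, counting error only). Across the 4 arms together, Mmp12 and Timp1 were the 2 of 9 tested members whose 14 CCl4 mice all lay above the 13 others, as 3.21% of all tested genes did.

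Timp1, the inhibitor made by activated stellate cells, was also near the limit of detection without CCl4. Control mice had 0.254, 0.0590, 0.256 and 0.286 CPM, and the 4MU, siLuc-LNP and siHAS2-LNP mice 0.101 to 0.156, 0.132 to 0.398 and 0.0403 to 0.179 CPM. With CCl4 the levels were 4.28 and 5.57 CPM, with CCl4 + siLuc-LNP 4.15, 3.51, 4.56 and 3.98 CPM, with CCl4 + 4MU 1.03, 1.44, 2.69 and 1.67 CPM and with CCl4 + siHAS2-LNP 2.27, 1.71, 1.56 and 2.27 CPM. The CCl4 and CCl4 + siLuc-LNP mice lay above all mice of the other CCl4 groups. The log2 fold change against no CCl4 was 4.44 ± 0.40 (SE) without further treatment, 3.58 ± 0.44 with 4MU and 3.91 ± 0.41 with siLuc-LNP, with edgeR adjusted p-values of 9.7e-09, 2.6e-06 and 1.8e-07. The siHAS2-LNP mice had 1, 1 and 3 counts, at the limit of detection, so that arm is given as a ratio of pooled levels, 23.8 (95% exact interval 9.98 to 74.4), from 149 counts with CCl4 and 5 without.

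Among the collagenases, Mmp13 rose and Mmp8 was too rare for the main test. Mmp13, the main collagenase of rodents, was at 0.305, 0, 0.171 and 0.204 CPM in control and 0 to 0.253 CPM in 4MU mice. It stood at 2.92 and 2.48 CPM in CCl4 mice and 1.92 to 3.09 CPM in CCl4 + 4MU mice, with log2 fold changes of 3.90 ± 0.69 (SE; adjusted p = 0.00011, edgeR) and 4.44 ± 0.75 (adjusted p = 0.00014). The siLuc-LNP mice, at 0.914, 0.967 and 0.615 CPM, lay above all 4 control mice (as 3.83% of tested genes did), but that 4.58-fold difference was not called (adjusted p = 0.389, edgeR). Within siLuc-LNP the rise with CCl4 was 2.03 ± 0.58 on the log2 scale (adjusted p = 0.012), and without siLuc-LNP mouse 3 its adjusted p was 0.053. Within siHAS2-LNP it was 1.31 ± 0.62 (adjusted p = 0.176), and the groups overlapped.

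Mmp8, the neutrophil collagenase, had 3, 2, 7 and 3 counts in control mice, 1, 0 and 2 in 4MU, 11, 5 and 5 in siLuc-LNP and 9, 8 and 2 in siHAS2-LNP mice. With CCl4 it had 8 and 10 counts, with CCl4 + 4MU 4, 10, 21 and 20, with CCl4 + siLuc-LNP 41, 17, 8 and 34 and with CCl4 + siHAS2-LNP 15, 13, 6 and 1. The CCl4 mice lay above the controls in CPM and the CCl4 + 4MU mice above the 4MU mice, while the groups of both nanoparticle arms overlapped. In the alternative without the filter, Mmp8 was called higher with CCl4 across the arms (log2 fold change 1.61 ± 0.35, adjusted p = 5.7e-05, edgeR) and within the 4MU arm (adjusted p = 0.00074), where the 4MU mice were at the limit of detection. The 9 neutrophil markers summed to 16.0 to 51.6 CPM in control and 28.2 to 40.3 CPM in CCl4 livers, and 1 of the 8 that were tested, Csf3r, rose across the 4 arms. Within the 4MU arm 3 of the 8 rose (S100a9, Csf3r and Ltf), with sums of 8.35 to 34.1 CPM in 4MU and 29.5 to 61.5 CPM in CCl4 + 4MU mice. Whether neutrophils bear on Mmp8 was not tested.

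Both gelatinases were low, and Mmp2 was the one that rose in more arms. Control mice had 1.27, 1.06, 1.45 and 2.45 CPM of Mmp2, a product of stellate cells and fibroblasts, and the CCl4 mice 3.60 and 5.95 CPM. The CCl4 + 4MU mice had 9.46, 6.82, 10.2 and 11.7 CPM, the CCl4 + siLuc-LNP mice 9.04, 5.16, 3.96 and 2.74 CPM and the CCl4 + siHAS2-LNP mice 2.62, 3.80, 3.25 and 4.53 CPM, against 2.00 to 2.93, 1.66 to 3.20 and 1.98 to 3.11 CPM in the mice with the same treatment and no CCl4. The groups with and without CCl4 stood apart for CCl4 alone and in the 4MU arm and overlapped in both nanoparticle arms. Log2 fold changes were 1.60 ± 0.38 (SE; adjusted p = 0.0020, edgeR), 2.01 ± 0.35 in the 4MU arm (adjusted p = 0.00018), 1.12 ± 0.35 in the siLuc-LNP arm (adjusted p = 0.020) and 0.51 ± 0.35 in the siHAS2-LNP arm (adjusted p = 0.376). The call in CCl4 against control was lost without CCl4 mouse 2 (adjusted p = 0.088), and that in the siLuc-LNP arm without siLuc-LNP mouse 1 or 2 or CCl4 + siLuc-LNP mouse 1 (adjusted p = 0.106, 0.063 and 0.110).

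Mmp9, which neutrophils and macrophages carry, was at 0.559, 0.590, 0.512 and 0.858 CPM in control and 1.60 and 0.903 CPM in CCl4 mice. The log2 difference of 0.97 ± 0.46 (SE) was not called (edgeR adjusted p = 0.109). In the 4MU arm it rose from 0.256, 0.0780 and 0.809 to 1.12, 1.25, 1.03 and 1.03 CPM, 1.57 ± 0.46 on the log2 scale (adjusted p = 0.015), and the groups did not overlap. That call was lost without 4MU mouse 1 or 2 (adjusted p = 0.064 and 0.101). The 3 neutrophil markers named for Mmp8 and all 8 monocyte and macrophage markers rose in the same arm, and their part in the Mmp9 level was not tested. The 8 monocyte and macrophage markers also all rose in CCl4 against control, where Mmp9 was not called. Mmp9 was not called in the siLuc-LNP arm, where both groups stood at 0.740 to 1.66 and 1.11 to 1.44 CPM, nor in the siHAS2-LNP arm (0.597 to 0.928 and 0.267 to 0.899 CPM).

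The 2 most abundant proteases, Mmp14 and Mmp19, had log2 fold changes under 1 in all 4 arms. Mmp14 was at 45.1 to 58.0 CPM in control and 66.8 and 72.7 CPM in CCl4 mice, with a log2 fold change of 0.49 ± 0.17 (SE; adjusted p = 0.030, edgeR). It rose by 0.49 ± 0.16 in the siLuc-LNP arm (adjusted p = 0.024) and 0.58 ± 0.16 in the siHAS2-LNP arm (adjusted p = 0.015), and the value was 0.01 ± 0.15 in the 4MU arm, where 4MU and CCl4 + 4MU mice had 53.7 to 64.6 and 51.0 to 66.9 CPM. The groups overlapped in the 4MU and siLuc-LNP arms and not in the others. Each of these 3 calls was lost when 1 of several mice was left out (adjusted p up to 0.180, 0.131 and 0.0987): control 3 or 4 or either CCl4 mouse for the first, siLuc-LNP 2 or 3 or CCl4 + siLuc-LNP 2 for the second, and siHAS2-LNP 2 or 3 for the third. Mmp19 was called in no arm, at 36.9 to 63.9 CPM in control and 59.2 and 57.2 CPM in CCl4 mice (log2 fold change 0.26 ± 0.30, adjusted p = 0.530).

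The other inhibitors rose less than Timp1. Timp2 was at 13.98, 9.43, 14.7 and 14.8 CPM in control and 21.0 and 32.9 CPM in CCl4 mice, which is 1.02 ± 0.25 on the log2 scale (SE; adjusted p = 0.0030, edgeR). It rose by 0.89 ± 0.23 in the 4MU arm (adjusted p = 0.0074; 0.056 without 4MU mouse 1), was at 0.61 ± 0.23 in the siLuc-LNP arm (adjusted p = 0.059; called by DESeq2 and without CCl4 + siLuc-LNP mouse 2 or 3) and at 0.03 ± 0.23 in the siHAS2-LNP arm (adjusted p = 0.955). Timp3 was at 2.39, 0.708, 1.24 and 1.67 CPM in control and 3.55 and 4.59 CPM in CCl4 mice. Both CCl4 mice lay above all controls for both genes. The log2 fold change of Timp3 was 1.43 ± 0.45 (adjusted p = 0.016) there, and 1.07 ± 0.42, 0.58 ± 0.43 and -0.10 ± 0.44 in the 4MU, siLuc-LNP and siHAS2-LNP arms, none of which was called (adjusted p = 0.065, 0.337 and 0.913). In the 4MU arm the groups did not overlap in Timp3. DESeq2 called it there (adjusted p = 0.040), as did edgeR without the low-count filter (0.023) and in a fit of the compared groups alone (0.035). Without CCl4 mouse 2 the calls of Timp2 and Timp3 in CCl4 against control were lost (adjusted p = 0.153 and 0.148). With that mouse left out, 3 members (Mmp12, Mmp13 and Timp1) were still called.

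**Figure D3:**
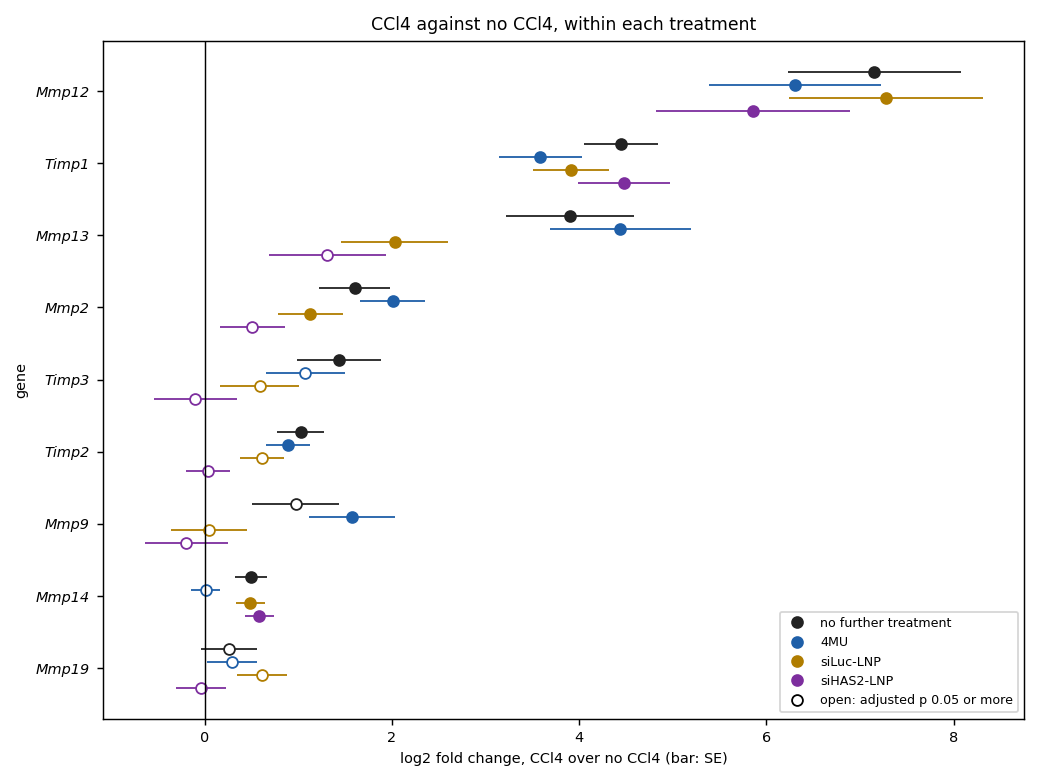
Log2 fold change of CCl4 over no CCl4 for the 9 tested members within each of the 4 treatments, with bars for the SE and filled points for an edgeR adjusted p under 0.05. Mmp12 and Timp1 are filled in all 4 arms, Mmp19 in none, and the siHAS2-LNP arm has 3 filled points.

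Averaged over the 4 arms, 14 CCl4 mice against 13 without, 8 of the 9 tested members rose, against 26.3% of all genes. Log2 fold changes ran from 0.39 for Mmp14 to 6.65 for Mmp12, and Mmp19 was not called (0.28 ± 0.14, SE; adjusted p = 0.094, edgeR), though it was without 4MU mouse 1 or siLuc-LNP mouse 2 (adjusted p = 0.031 and 0.0498) and without the low-count filter (0.035). The call of Mmp9 (0.59 ± 0.22, adjusted p = 0.028) was lost without 4MU mouse 2, siLuc-LNP mouse 2, CCl4 mouse 1 or CCl4 + siHAS2-LNP mouse 1 (adjusted p = 0.053, 0.052, 0.092 and 0.054).

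Markers of other cell types moved in the same contrast. All 8 monocyte and recruited macrophage markers rose across the arms, and their sum was 58.3 to 113 CPM in control, 257 to 310 in CCl4, 422 to 685 in CCl4 + 4MU, 224 to 548 in CCl4 + siLuc-LNP and 143 to 278 in CCl4 + siHAS2-LNP mice. Of the 8 stellate cell and myofibroblast markers that were tested 7 rose (all but Lrat). The sums of all 9 in the list were 66.9 to 108, 398 to 496, 176 to 347, 267 to 572 and 155 to 247 CPM in the same groups. The 3 mesothelial and 4 tested cholangiocyte markers rose too, 4 of 6 Kupffer cell markers fell and 4 of 5 hepatocyte markers fell. Of 6 sinusoidal endothelial markers 3 rose (Lyve1, Kdr and Pecam1) and Stab2 fell, 2 of 4 T and B cell markers fell, the 1 tested pancreatic gene (Cela1) fell, and the 1 tested adipose gene was not called. Their part in the levels of the proteases and inhibitors was not tested.

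In treated CCl4 mice set against CCl4 alone, the calls were Timp1 with 4MU and all 3 inhibitors with siHAS2-LNP, and every one of them was lost without CCl4 mouse 2. The 3 contrasts that follow use the same 2 CCl4 mice, so they are not independent of each other. In CCl4 + 4MU against CCl4, Timp1 fell by 1.52 on the log2 scale (SE 0.34; adjusted p = 0.0041, edgeR), from 4.28 and 5.57 to 1.03, 1.44, 2.69 and 1.67 CPM without overlap. It was the only one of the 9 members called, against 10% of all genes that were lower. Mmp2 was higher in all 4 CCl4 + 4MU mice than in both CCl4 mice but was not called (log2 fold change 1.00 ± 0.38, adjusted p = 0.068). The values of Mmp12 (0.14 ± 0.70), Mmp13 (-0.10 ± 0.58), Timp2 (-0.06 ± 0.26) and Timp3 (-0.23 ± 0.44) all had ranges that overlapped with those of the CCl4 mice. In this contrast 3 of 5 hepatocyte markers (Alb, Ttr and Cyp2e1) were higher and 1 of 8 monocyte and macrophage markers (Ccr2) was lower. The median log2 fold change of those 8 macrophage markers was -0.66. Their summed CPM, to which abundant markers add most, went the other way. It was 422 to 685 CPM against 257 to 310 CPM in CCl4 mice, without overlap. None of the 8 tested stellate cell markers was called. The sum of all 9 in the list, Col1a1 and the untested Tagln among them, was 176 to 347 CPM against 398 to 496 CPM in CCl4 mice, without overlap. The part of these cells in the Timp1 level was not tested.

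In CCl4 + siHAS2-LNP against CCl4 all 3 inhibitors fell and no protease was called, where 7.33% of all genes were lower. Timp1 fell by 1.35 (SE 0.34; adjusted p = 0.011, edgeR), from 4.28 and 5.57 to 2.27, 1.71, 1.56 and 2.27 CPM. Timp2 fell by 1.14 (SE 0.25; adjusted p = 0.0052), from 21.0 and 32.9 to 13.7, 14.4, 11.99 and 8.14 CPM. Timp3 fell by 1.54 (SE 0.46; adjusted p = 0.027), from 3.55 and 4.59 to 1.33, 1.56, 0.682 and 2.401 CPM. All 4 treated mice lay below both CCl4 mice for the 3 Timp genes and for Mmp9, Mmp12 and Mmp13, 6 of 9 members, against 18.8% of all tested genes. For the proteases the log2 differences were -1.60 ± 0.69 (Mmp12, adjusted p = 0.116), -1.15 ± 0.59 (Mmp13, 0.193) and -0.96 ± 0.47 (Mmp9, 0.172). Mmp12 was called lower without CCl4 + siHAS2-LNP mouse 2 (-2.39 on the log2 scale, adjusted p = 0.029) and in the alternative without the low-count filter (-1.62, adjusted p = 6.6e-05). It was also called lower in a fit of the compared groups alone (-1.62, adjusted p = 0.043, edgeR). In the same contrast 4 of 8 stellate cell markers fell (Col1a1, Acta2, Des and Pdgfra), as did 4 of 6 Kupffer cell markers (Clec4f, Timd4, Vsig4 and Marco), with sums of 262 to 283 CPM in CCl4 and 97.2 to 136 CPM in CCl4 + siHAS2-LNP mice. Endothelial Kdr and Pecam1, mesothelial Upk3b and Wt1, Cd68 of the macrophage list and Krt7 of the cholangiocyte list were lower too, and Cyp2e1 of the hepatocyte list was higher. Their part in the fall of the inhibitors was not tested.

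These calls rested on CCl4 mouse 2, which had the higher Timp1, Timp2 and Timp3 levels of the pair. Without it none of the 9 members was called in either contrast, and the edgeR adjusted p of Timp1 was 0.098 for CCl4 + 4MU and 0.179 for CCl4 + siHAS2-LNP. For CCl4 + siHAS2-LNP the log2 differences without that mouse were -1.18 for Timp1, -0.81 for Timp2 and -1.36 for Timp3 (adjusted p = 0.200 and 0.242 for the latter 2). The Timp3 call was also lost without CCl4 + siHAS2-LNP mouse 1 or 3 (adjusted p = 0.054 and 0.085). CCl4 mouse 2 also had the lowest hepatocyte marker sum of the 27 libraries, 68771 CPM against 121716 CPM in CCl4 mouse 1. Its mesothelial (30.9 against 13.3 CPM) and adipose sums (6.32 against 1.17 CPM) were the highest of the 27. The part of this in the calls was not tested.

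**Figure D4:**
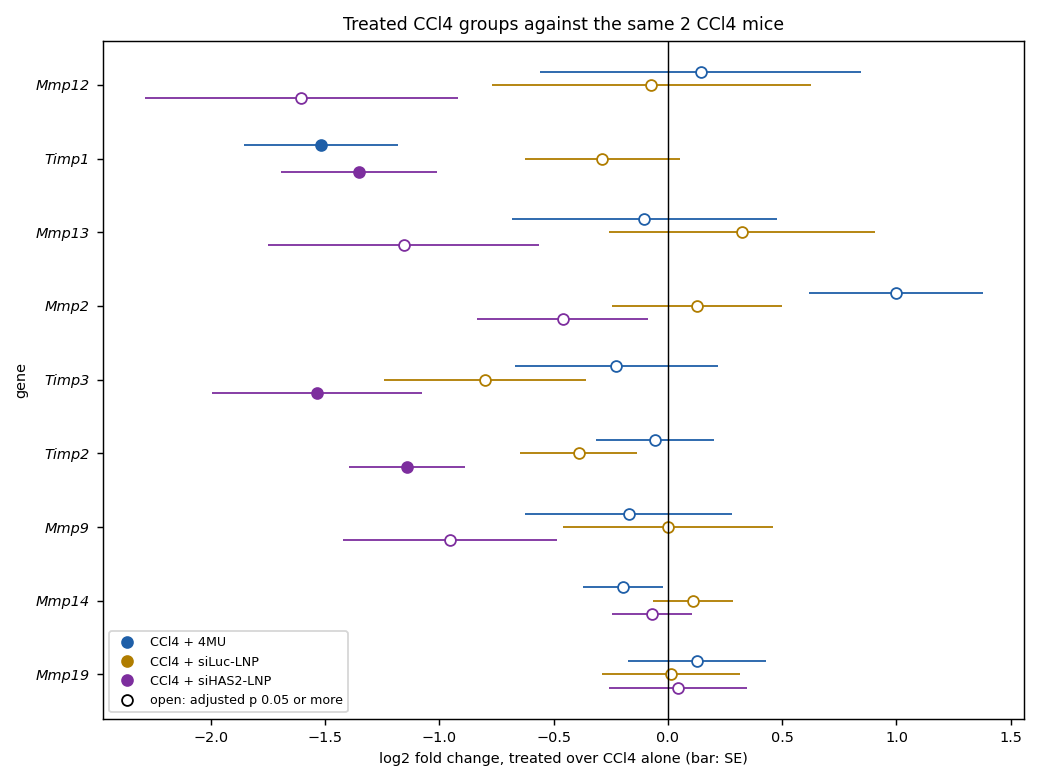
Log2 fold change of each treated CCl4 group over the same 2 CCl4 mice for the 9 tested members, with bars for the SE and filled points for an edgeR adjusted p under 0.05. Timp1 is filled for CCl4 + 4MU and for CCl4 + siHAS2-LNP, Timp2 and Timp3 are filled for CCl4 + siHAS2-LNP, and no point is filled for CCl4 + siLuc-LNP.

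No member was called between the nanoparticle control and CCl4 alone. In CCl4 + siLuc-LNP against CCl4 DESeq2 called none of the 9 members either, and none had an unadjusted p under 0.05 in edgeR, where 0.248% of all genes were called. Log2 differences ran from -0.80 ± 0.44 for Timp3 to 0.32 ± 0.58 for Mmp13 (SE). All 9 tested members overlapped between these groups. For Mmp8, outside the main test, the CCl4 + siLuc-LNP mice all lay above the CCl4 mice (0.480 to 1.60 against 0.376 to 0.389 CPM). Without the low-count filter it was not called (log2 difference 1.36 ± 0.66, SE, adjusted p = 0.533, edgeR).

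Set against that control, CCl4 + siHAS2-LNP had lower inhibitors and macrophage elastase by estimate, but no member was called by edgeR, where 1.09% of all genes were. Timp1 was 1.56 to 2.27 CPM against 3.51 to 4.56 CPM, a log2 difference of -1.06 ± 0.29 (SE; edgeR adjusted p = 0.073). Timp2 was 8.14 to 14.4 against 16.4 to 28.6 CPM, -0.75 ± 0.22 (adjusted p = 0.083). Timp1, Timp2 and Mmp9 had all 4 siHAS2-LNP mice below all 4 siLuc-LNP mice, 3 of 9 members against 3.52% of all genes. Of the 9 members 5 had an unadjusted p under 0.05, and DESeq2 called 2, Timp1 (log2 difference -1.10, adjusted p = 0.014) and Timp2 (-0.79, adjusted p = 0.027). Mmp12 (-1.53 ± 0.59, edgeR adjusted p = 0.184) and Mmp13 (-1.48 ± 0.51, 0.135) overlapped between the groups. Without CCl4 + siLuc-LNP mouse 3, Mmp12 was called (log2 difference -1.95 ± 0.51, adjusted p = 0.049, edgeR), and without the low-count filter Mmp12, Mmp13 and Timp2 were.

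The treated groups differed from each other in Mmp2 and Timp2. In CCl4 + 4MU against CCl4 + siHAS2-LNP 2 members were higher, against 0.765% of all genes: Mmp2 by 1.46 ± 0.31 (SE; adjusted p = 0.021, edgeR), with 9.46, 6.82, 10.2 and 11.7 against 2.62, 3.80, 3.25 and 4.53 CPM, and Timp2 by 1.09 ± 0.22 (adjusted p = 0.016), with 24.2, 24.1, 28.5 and 26.8 against 13.7, 14.4, 11.99 and 8.14 CPM. The groups overlapped in neither gene. In this contrast 3 of 6 Kupffer cell markers (Clec4f, Vsig4 and Marco), Lyz2 of the macrophage list and Krt19 of the cholangiocyte list were higher too, and their part in Mmp2 and Timp2 was not tested. Timp1 was not called, -0.17 ± 0.30 on the log2 scale, with a 4MU range of 1.03 to 2.69 CPM around that of siHAS2-LNP. Both calls were lost without CCl4 + 4MU mouse 4 (adjusted p = 0.109 for Mmp2 and 0.054 for Timp2) or CCl4 + siHAS2-LNP mouse 3 (0.118 and 0.098), that of Mmp2 also without CCl4 + siHAS2-LNP mouse 2 (0.061) and that of Timp2 without CCl4 + siHAS2-LNP mouse 4 (0.055).

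In CCl4 + 4MU against CCl4 + siLuc-LNP Timp1 was lower by estimate and call, -1.23 ± 0.29 on the log2 scale (SE; adjusted p = 0.046, edgeR), without overlap, the 1 call among the 9 members against 0.283% of all genes. It was lost without CCl4 + 4MU mouse 1, 2 or 4 or CCl4 + siLuc-LNP mouse 1 or 4 (adjusted p up to 0.180), and in a fit of these 2 groups alone (adjusted p = 0.243).

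Without CCl4 no treatment moved a member past the threshold. None of the 9 members was called by edgeR or DESeq2 for 4MU against control, siLuc-LNP against control or siHAS2-LNP against siLuc-LNP, where 0.00709%, 0.213% and 0.0425% of all genes were called by edgeR. At an unadjusted p under 0.05 there were 0, 2 (Mmp13 and Mmp9, both higher with siLuc-LNP) and 2 members (Mmp19 and Timp1). Timp1 had 5 counts in all in the 3 siHAS2-LNP mice and 15 in the 3 siLuc-LNP mice, a ratio of 0.307 (95% exact interval 0.0874 to 0.889, counting error only). For Mmp8, outside the main test, the 4MU mice all lay below the controls (0 to 0.101 against 0.118 to 0.299 CPM), near the limit of detection. Without the low-count filter it was not called there (adjusted p = 0.897, edgeR).

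Tests of whether the effect of CCl4 itself differed between treatments called no member. For 4MU the interaction was largest in Mmp12 (-0.85 ± 1.43 on the log2 scale, SE) and Timp1 (-0.86 ± 0.68, edgeR adjusted p = 0.438), and 1 member, Mmp14, had an unadjusted p under 0.05 (-0.48 ± 0.23, adjusted p = 0.194), where 5.67% of all genes were called. For siHAS2-LNP against siLuc-LNP no member had an unadjusted p under 0.05, with values from -1.42 ± 1.87 for Mmp12 to 0.57 ± 0.66 for Timp1, where 0.0354% of all genes were called. DESeq2 called none in either. A call within 1 arm of a tested pair and not the other, such as that of Mmp2 with siLuc-LNP and not siHAS2-LNP, is therefore not shown to differ. Timp2 was called in both arms of the 4MU pair and in neither nanoparticle arm. These tests do not set those arms against each other, so they cannot decide whether its CCl4 effect differed between them.

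Mmp12 varied widely between mice of 1 group, above all within CCl4 + siLuc-LNP, where the highest mouse was 20.6 times the lowest. These 4 mice had 1636, 231, 54 and 1926 counts, or 64.0, 8.90, 3.24 and 66.7 CPM, so that mice 1 and 4 were high and mice 2 and 3 low. Mmp13 followed the same split (5.83, 1.62, 1.38 and 4.57 CPM), and so did Mmp8 (counts of 41, 17, 8 and 34), while Timp1 did not (4.15, 3.51, 4.56 and 3.98 CPM). The monocyte and macrophage marker sum was 548, 300, 224 and 377 CPM in these 4 mice. Among the CCl4 + siHAS2-LNP mice, mouse 2 had the highest Mmp12 and the highest Mmp13, and its marker sum was also the highest of its group (246, 278, 143 and 152 CPM for mice 1 to 4). CCl4 + 4MU mouse 3 was the highest of its group in Mmp12 (66.8 CPM) and in the sum (685 CPM). Mice 2 and 4 of that group had the same sum, 422 CPM, with 46.6 and 21.6 CPM of Mmp12. The CCl4 mice had sums of 257 and 310 CPM with 35.6 and 39.7 CPM of Mmp12. CCl4 + siHAS2-LNP mouse 1, at a sum of 246 CPM, had 8.64 CPM. Whether the number of macrophages sets these levels was not tested.

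**Figure D5:**
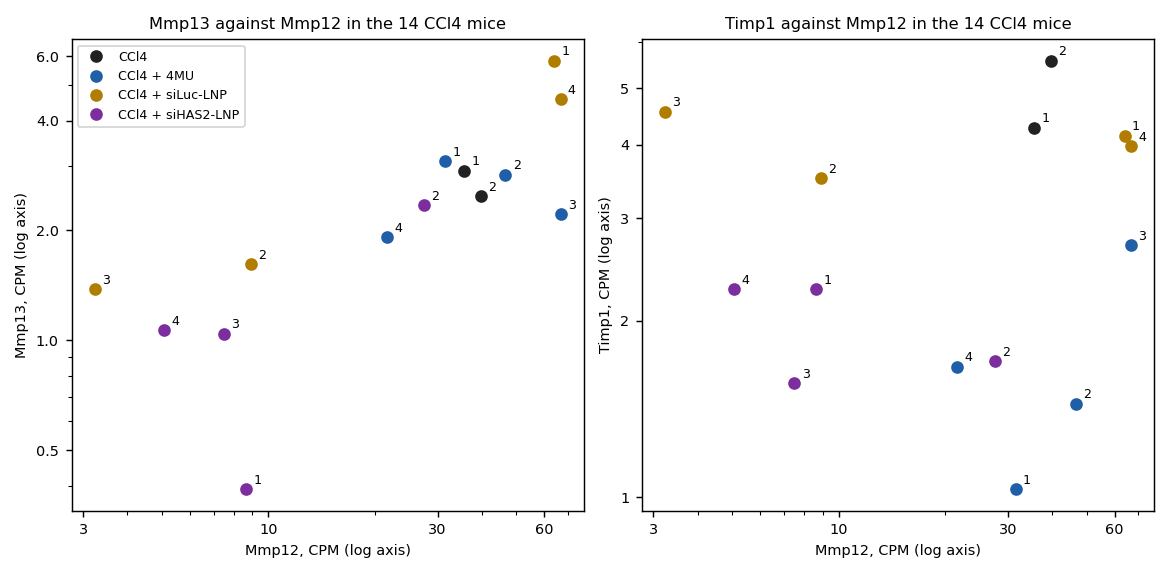
Mmp13 (left) and Timp1 (right) against Mmp12 in the 14 CCl4 mice, in CPM on log axes, coloured by group and labelled with the mouse number. CCl4 + siLuc-LNP mice 1 and 4 are highest in Mmp13 and, with CCl4 + 4MU mouse 3, in Mmp12, whereas for Timp1 all CCl4 and CCl4 + siLuc-LNP mice stand above all others.

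The genes whose log2 CPM most resembled a member's over the 27 libraries are given as a description. The libraries share their groups, and Mmp12, Mmp13 and Timp1 share a large step between the groups with and without CCl4 that Mmp19 does not have. Mmp12 was most like Adam8 (Pearson r = 0.957), Gpr137b-ps (0.942) and Pygb (0.941). Timp1 was most like the histone gene H2az1 (0.967) and the cell cycle genes Cdc25c (0.961) and Sapcd2 (0.959). Mmp13 was closest to the macrophage receptor gene Trem2 (0.890), C1qtnf6 (0.889) and the basement membrane collagen gene Col4a1 (0.889), and Mmp2 to Ltbp3 (0.902), Islr (0.891) and Scube1 (0.884). Timp2 was closest to Sparcl1 (0.905), Pmp22 (0.893) and Cxcl16 (0.886). The nearest genes were Selplg (0.776), Gpr141 (0.768) and Pik3r5 (0.743) for Mmp9, Rai14 (0.842), Cc2d2a (0.830) and Serpinb8 (0.802) for Mmp14, Tm9sf4 (0.899), Arhgef11 (0.870) and Uba1 (0.861) for Mmp19, and Slc37a3 (0.811), Naip2 (0.809) and Tm9sf1 (0.801) for Timp3.

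Other genes of matrix turnover mostly rose with CCl4 as well. Of 13 tested ADAM and ADAMTS proteases 12 rose across the arms and none fell, with a median log2 fold change of 1.22. The largest were Adam8, a membrane protease of leukocytes (3.68 ± 0.30, SE; adjusted p = 2.4e-10, edgeR), Adamts12 (3.06 ± 0.30) and Adam12 (2.01 ± 0.27). Adam8 was at 0.203, 0.354, 0.555 and 0.408 CPM in control and 5.30 and 13.4 CPM in CCl4 mice. Of 11 activators, partners and clearance genes 8 rose, led by Ctsk, a collagen-cleaving cathepsin (3.12 ± 0.35), and by the plasminogen activators Plat (2.99 ± 0.29) and Plau (2.14 ± 0.26). Of 10 matrix substrates 9 rose and Dcn fell, and the fibrillar collagen genes Col1a1 (4.06 ± 0.29), Col1a2 (3.02 ± 0.24) and Col3a1 (2.53 ± 0.23) had the largest changes. Beside them, 26.3% of all tested genes rose, and the median over all tested genes was -0.02.

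In the same 2 contrasts in which Timp1 fell, both plasminogen activators also fell. Plau and Plat were lower in CCl4 + 4MU and in CCl4 + siHAS2-LNP than in the CCl4 mice they share. Plau was at 14.8 and 17.2 CPM in CCl4, 2.58, 2.54, 3.95 and 4.05 CPM in CCl4 + 4MU and 3.64, 4.05, 3.85 and 1.20 CPM in CCl4 + siHAS2-LNP mice, with log2 differences of -2.28 ± 0.49 (adjusted p = 0.0033, edgeR) and -2.27 ± 0.49 (adjusted p = 0.0047). Of the 10 matrix substrates 5 were lower in CCl4 + siHAS2-LNP (Col1a1, Col1a2, Col4a1, Col4a2 and Eln), where 7.33% of all genes were lower. In CCl4 + 4MU 1 was lower (Eln), the same share as the 10% of all genes that were lower there. How these calls fare without CCl4 mouse 2 is not given here. Col1a1, the main scar collagen, was at 154 and 272 CPM in CCl4, 90.9, 56.2, 143 and 30.4 CPM in CCl4 + 4MU and 69.5, 76.9, 49.2 and 48.0 CPM in CCl4 + siHAS2-LNP mice.

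Of the 16 other matrix metalloproteinases 6 were tested, of which 2, Mmp7 and Mmp23, rose across the arms, where 26.3% of all genes did. Mmp23 rose by 1.59 ± 0.23 (SE; adjusted p = 4.1e-06, edgeR). Mmp7, a protease of epithelial cells, rose by 2.54 ± 0.71, and 1 mouse stood apart: the CCl4 + 4MU mice had 0.817, 0.648, 0.628 and 43.9 CPM. The highest was mouse 4, and the cholangiocyte marker sum of that mouse was 122 CPM, against 16.3 to 23.8 CPM in CCl4 mice. Among 3 tested other inhibitors A2m, a broad protease trap, rose (3.86 ± 0.67), from at most 10 counts in any mouse without CCl4 to 0.924 and 1.47 CPM in CCl4 mice.

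Mmp8, Mmp12 and Mmp13 lie in a run of 10 Mmp genes at chr9:7272514-7699587 on GRCm39, of which 4 passed the filter. The run was not active as a whole: Mmp1a and Mmp1b had 0 counts in all 27 libraries, Mmp3 and Mmp20 at most 7 and 3, and Mmp10 at most 11. In the 14 CCl4 mice the median was 670 raw counts for Mmp12, 55.5 for Mmp13, 26.5 for Mmp27, 15.5 for Mmp7 and 11.5 for Mmp8, against 5, 5, 17, 4 and 3 in the mice without CCl4. Mmp12 and Mmp13 are thus the 2 genes of the run whose medians differed by more than 10 times.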

How the data were processed

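RNA from whole liver of 27 mice was sequenced as paired ends on a NextSeq500 from poly(A)-selected stranded libraries. Per the labels and the study's methods, reads were trimmed with Trimmomatic 0.39, aligned with HISAT2 to GRCm39 with Ensembl 105 genes and counted per gene with featureCounts, without multi-mapping reads. The authors then used DESeq2. The deposited table holds raw counts of 55414 genes in 27 libraries, and these counts are the only values used.

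The 10 members and all gene lists were chosen with earlier results of these data known. Levels are counts scaled to a library total of 1000000 (CPM), divided by the summed exon length where genes are set side by side. Tests used edgeR 4.0.16 (quasi-likelihood F test, TMM, R 4.3.3) in 1 fit of the 8 groups over the 14114 genes whose mean count was 10 or more, with Benjamini-Hochberg adjustment over all of them and a threshold of 0.05. The SE was derived from the log2 fold change and its F statistic. Libraries of 1 group come from separate mice. Exact 95% intervals of count ratios and the limit of detection (3 counts) cover counting error only. The script was tested on simulated data. Alternatives were DESeq2 1.42.0, its size factors, no low-count filter, fits of the compared groups alone, the replicate number as a block and leaving out each mouse. Named genes were all members, the 3 largest called changes of each other list across the CCl4 arms, and the 3 tested genes with a symbol most correlated with each member (log2 CPM, prior count 2), predicted genes and members left out. Other genes named outside this rule were chosen after their values were seen.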

Additional observations from a re-analysis of the deposited data

Results flagged for a closer look

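Control mouse 2 was far below the other 3 control mice in 2 of the inhibitors. On the scale of log2 CPM with a prior count of 2, on which the gaps were measured, its gap to the nearest control was 0.905 of the group's range for Timp1, with 0.0590 CPM against 0.254, 0.256 and 0.286 CPM, a level of 1 count in a library where 3 counts are the limit of detection. The gap for Timp2 was 0.875 of the range on that scale, with 9.43 CPM against 13.98, 14.7 and 14.8 CPM. Both exceed Dixon's 95% critical value for 4 samples. They are 2 of 36 groups examined in this way, of which chance alone would pick out about 5%. Without this mouse, the calls of Timp1 and Timp2 in CCl4 against control were kept.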

How the results depend on the processing

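No log2 fold change of a called member turned its sign under the alternatives run. Members that were not called were not followed in this way. Of the values for called members under alternatives that keep all mice, 163 stayed past the threshold and 9 did not, and with a mouse left out 364 stayed and 40 did not. Without the low-count filter, the members called numbered 2 in CCl4 + 4MU against CCl4, 3 in CCl4 + siHAS2-LNP against CCl4 + siLuc-LNP, 4 in CCl4 + 4MU against CCl4 + siHAS2-LNP, 2 in CCl4 + 4MU against CCl4 + siLuc-LNP and 1 (Mmp13) in siLuc-LNP against control. DESeq2 called 2 in CCl4 + siHAS2-LNP against CCl4 + siLuc-LNP. Fits of the compared groups alone called 3 within siLuc-LNP and 0 in CCl4 + 4MU against CCl4 + siLuc-LNP. The cause of these differences was not tested.

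The replicate numbers did not pair the mice: over 83 pairs of the same number in other groups the correlation of deviations from the group means ran from -0.32 to 0.293, and 4 of 27 libraries were most like their own number. With the number as a block, 0 members were called in CCl4 + 4MU against CCl4 + siLuc-LNP (Timp1, -1.26 on the log2 scale, adjusted p = 0.078, edgeR), and Mmp14 in CCl4 against control had an adjusted p of 0.074.

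With 1 mouse left out, the count of members called ran from 3 to 7 in CCl4 against control, 4 to 6 within 4MU, 3 to 6 within siLuc-LNP, 2 to 3 within siHAS2-LNP and 7 to 9 across the arms. It ran from 0 to 1 in CCl4 + 4MU against CCl4, 0 to 4 in CCl4 + siHAS2-LNP against CCl4, 0 to 1 in CCl4 + siHAS2-LNP against CCl4 + siLuc-LNP, 0 to 2 in CCl4 + 4MU against CCl4 + siHAS2-LNP and 0 to 1 in CCl4 + 4MU against CCl4 + siLuc-LNP. The 3 within siLuc-LNP came without siLuc-LNP mouse 2 or 3. With a CCl4 mouse left out, the other is assumed to vary like the other groups. Mmp8, and Mmp12, Mmp13 and Timp1 in mice without CCl4, were limited by depth.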

Other observations

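Mmp7, which epithelial cells of ducts make, had 1235 counts in CCl4 + 4MU mouse 4 and at most 31 in any of the other 26 libraries. It was called higher in CCl4 + 4MU than in CCl4 (log2 difference 3.91 ± 1.35, SE, adjusted p = 0.045, edgeR), CCl4 + siLuc-LNP (4.59 ± 1.06) and CCl4 + siHAS2-LNP mice (4.12 ± 1.04). All 3 calls rested on mouse 4: without it, an alternative chosen after seeing the data, the log2 differences of Mmp7 were -0.13 ± 0.69, 0.54 ± 0.60 and 0.08 ± 0.60 (edgeR adjusted p = 0.924, 0.761 and 0.979). The summed cholangiocyte markers of the CCl4 + 4MU mice were 6.02, 9.66, 11.1 and 122 CPM, with mouse 4 the highest here too, and the part of these cells in the Mmp7 level was not tested. Among the members, this mouse had the lowest Mmp12 of its group (21.6 CPM) and the highest Mmp2 (11.7 CPM), and the ratio of Mmp to Timp levels per kb in its group was 4.07 to 6.21.

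Mmp17, a membrane-anchored protease, was also called between treated CCl4 groups, with a lower level in CCl4 + siHAS2-LNP than in CCl4 + siLuc-LNP mice (-1.80 ± 0.38, SE, on the log2 scale, adjusted p = 0.032, edgeR). Spp1, osteopontin, was lower in CCl4 + 4MU than in CCl4 + siLuc-LNP mice (-1.33 ± 0.30, adjusted p = 0.041). In CCl4 + 4MU against CCl4, Adam10 and Adamts1 were the 2 of 13 tested ADAM and ADAMTS genes called, both lower (-0.73 ± 0.21 and -1.03 ± 0.28) where 10% of all genes were, and none was called in CCl4 + siHAS2-LNP against CCl4.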
